A study of Rattus norvegicus with 21 samples.

Results

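The genes described here are a set of interferon-response and antigen-processing genes measured by RNA sequencing of rat liver. The set was given as 39 gene symbols, and a member was any symbol found in both deposited expression tables. Of the 39 symbols 38 were found, each on 1 row, among 32623 genes per table; Oas1b had no row. The members were 17 antiviral effectors, 8 antigen processing genes, 5 regulators of the interferon response, 3 RNA sensors, 3 guanylate-binding proteins and 2 secreted or surface immune ligands.

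The study asked how weaning rat pups early affects the adult liver and whether leucine changes that outcome. The 21 libraries fell into 7 groups of 3. Wistar rats were sampled at 23 and 63 days of age (d23 and d63), each as a control and an early weaned group, and SD rats at 211 days (d211) as a control group, an early weaned group and an early weaned group given 1.5% leucine in the drinking water. The labels give neither the age at weaning nor the sex, and they do not state whether each sample came from its own animal. The p-values therefore reflect how far these samples spread, which may in part be technical. Strain and table divide d211 from the other ages, so no test was made between d211 and the younger ages.

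Interferons are secreted proteins that signal through JAK kinases to STAT factors. Type I interferons lead mainly to a complex holding STAT2 and IRF9 that binds an element called ISRE, and interferon gamma acts through an element called GAS and through IRF1. Their targets sense and block viruses, and they also equip the cell to show peptides on MHC class I. Immunoproteasome subunits cut the peptides, the TAP transporter carries them into the endoplasmic reticulum, tapasin helps to load them, and B2m is the light chain of the finished complex. In liver these genes are expressed by hepatocytes and by resident immune and endothelial cells.

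Promoter sequences of the transporter genes, of Gbp5 and of Irf1 are shown first, because the d211 differences described later were large in these genes. Sequences are from RefSeq (GRCr8) and run 5′ to 3′ on the gene's strand over the 250 bases before the annotated start. Capitals mark the ISRE core, GAAA followed by any 2 bases and a second GAAA, on either strand, and in Irf1 the GAS core, TTCNNNGAA, which was searched on both strands. The Tap1 region is chr20:4668544-4668793 on the minus strand, Tap2 chr20:4652297-4652546 on the minus strand, Gbp5 chr2:233910749-233910998 on the plus strand and Irf1 chr10:38417685-38417934 on the plus strand.
Tap1: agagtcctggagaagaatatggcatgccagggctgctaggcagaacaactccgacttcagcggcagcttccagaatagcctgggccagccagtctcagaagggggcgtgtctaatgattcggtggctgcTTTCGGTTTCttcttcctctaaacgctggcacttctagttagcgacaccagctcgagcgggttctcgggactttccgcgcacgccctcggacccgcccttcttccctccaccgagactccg
Tap2: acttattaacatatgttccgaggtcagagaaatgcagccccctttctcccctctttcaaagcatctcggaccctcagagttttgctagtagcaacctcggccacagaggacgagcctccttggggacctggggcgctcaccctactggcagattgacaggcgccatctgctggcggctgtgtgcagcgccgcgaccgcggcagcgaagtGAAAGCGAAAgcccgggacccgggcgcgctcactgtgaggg
Gbp5: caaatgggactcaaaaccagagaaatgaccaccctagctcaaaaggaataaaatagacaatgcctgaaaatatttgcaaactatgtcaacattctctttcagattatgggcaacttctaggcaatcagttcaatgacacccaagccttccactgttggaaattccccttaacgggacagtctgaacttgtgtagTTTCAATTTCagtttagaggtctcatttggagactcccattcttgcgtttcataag
Irf1: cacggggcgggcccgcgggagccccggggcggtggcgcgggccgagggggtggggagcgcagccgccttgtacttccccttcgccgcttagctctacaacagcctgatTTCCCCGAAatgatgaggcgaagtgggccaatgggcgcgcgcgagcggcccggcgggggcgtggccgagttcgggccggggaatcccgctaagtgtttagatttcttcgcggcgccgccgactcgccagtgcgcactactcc

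Promoters of 29 of the 38 members were found in the RefSeq table. Within 250 bases before to 50 bases after the start, 21 of the 29 (72.4%) held the ISRE core on either strand, against 1312 of 33469 promoters of that length (3.92%). The GAS core was present in 7 of the 29 (24.1%), against 2970 of all promoters (8.87%). Of the 28 ISRE matches 19 began within 100 bases before the start, 7 members held 2 matches, and these overlapped each other in 3 members. In 1 member, Bst2, an ISRE match overlapped a GAS match. By role, the ISRE core was found in 6 of 7 antigen processing promoters, 3 of 3 guanylate-binding protein promoters, 9 of 12 antiviral effector promoters and 1 of 4 regulator promoters. The windows below show how alike the matched letters are across roles, with the matched 10 bases in capitals and up to 10 bases on either side, each written on the strand on which the core reads as a pair of GAAA. In GRCr8 the core of Psmb8 lies at chr20:4657026-4657035 on the plus strand, that of Psmb10 at chr19:50743300-50743309 on the minus strand, that of Tapbp at chr20:4967894-4967903 on the minus strand and that of B2m at chr3:129549180-129549189 on the plus strand. The core of Gbp2 lies at chr2:234005696-234005705 on the minus strand, that of Ifit3 at chr1:241527282-241527291 on the minus strand and that of Irf7 at chr1:205800083-205800092 on the plus strand. The core of Ifih1 lies at chr3:67684018-67684027 on the minus strand and that of Cxcl10 at chr14:15988823-15988832 on the plus strand.
Psmb8: acaaggaagtGAAAGCGAAAgccacagcac
Psmb10, match nearer the start: agtggggggtGAAAGCGAAAgtaggaagcg
Tapbp, first match: gcctttgaggGAAAATGAAAgtgaaaggaa
B2m: ataagaacatGAAACTGAAAatgggaaagt
Gbp2: ttaagacaatGAAAGTGAAActaaaaaact
Ifit3: gtggaaactaGAAACTGAAAcagacttaaa
Irf7: tgcgtctcggGAAAATGAAAcctaaactgt
Ifih1: gaagagaatcGAAACAGAAAccgatgtgtg
Cxcl10: cgctttgGAAAGTGAAActtaactcac

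The members without an ISRE core in this window were Mx1, Oasl, Irf1, Irf9, Stat2, Psmb9, Cd274 and Parp9. Such matches describe the letters of the window and not a bound site. In the deposited tables, whose rat genome build is not given in the sources used here, 5 members lie on chromosome 20. Psmb9 (3973420 to 3978845, minus strand) and Tap1 (3979035 to 3989669, plus strand) start 190 bases apart and are read in opposite directions, and Psmb8 (3990613 to 3993769) and Tap2 (3995544 to 4009587) follow on the plus strand. The RefSeq promoters of Tap1 and Psmb9 share 44 bases, from annotated starts that differ in spacing from the deposited ones. Which letters fall in a promoter window depends on the start used. Parp9 and Dtx3l, the other pair read in opposite directions, start 1129 bases apart on chromosome 11.

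Library totals ran from 52054644 to 75118153 count units, and low values piled up at multiples of 4. From these values alone 1 sequenced fragment was inferred to be worth about 4 units. On that inference a floor of 3 fragments was set at 12 units per library. Levels are given as the authors' FPKM (fragments scaled by gene length and library size), by replicate 1, 2 and 3. Differences are log2 fold changes from edgeR on the counts with their standard error (SE), and a gene was called when its p, adjusted over all 15416 Wistar or 15019 SD genes tested, was under 0.05. All 38 members passed the filter on low counts in both tables. The summed FPKM of 9 hepatocyte markers was between 53567 and 111980 in every library. The labels give no batch, so any batch that goes with age or strain cannot be told apart from it. Mx1 and Mx2, and the members of the Ifit, Oas and Gbp families, resemble their paralogs, and the counts may share reads between them.

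Levels differed widely among the members. The median of the member means was 0.987 FPKM in d23 controls, 6.22 in d63 controls and 4.55 in d211 controls. Of 38 members 19 were under 1 FPKM in d23 controls, 3 in d63 controls and 7 in d211 controls. B2m was the highest member throughout, with a mean of 207 FPKM in d23 controls, 887 in d63 controls and 1015 in d211 controls. The heatmap of all members by library shows 2 features that recur below, higher values at d63 than at d23 in nearly every row and a d211 early weaned group in which replicates 1 and 3 stand above replicate 2.

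**Figure D1:**
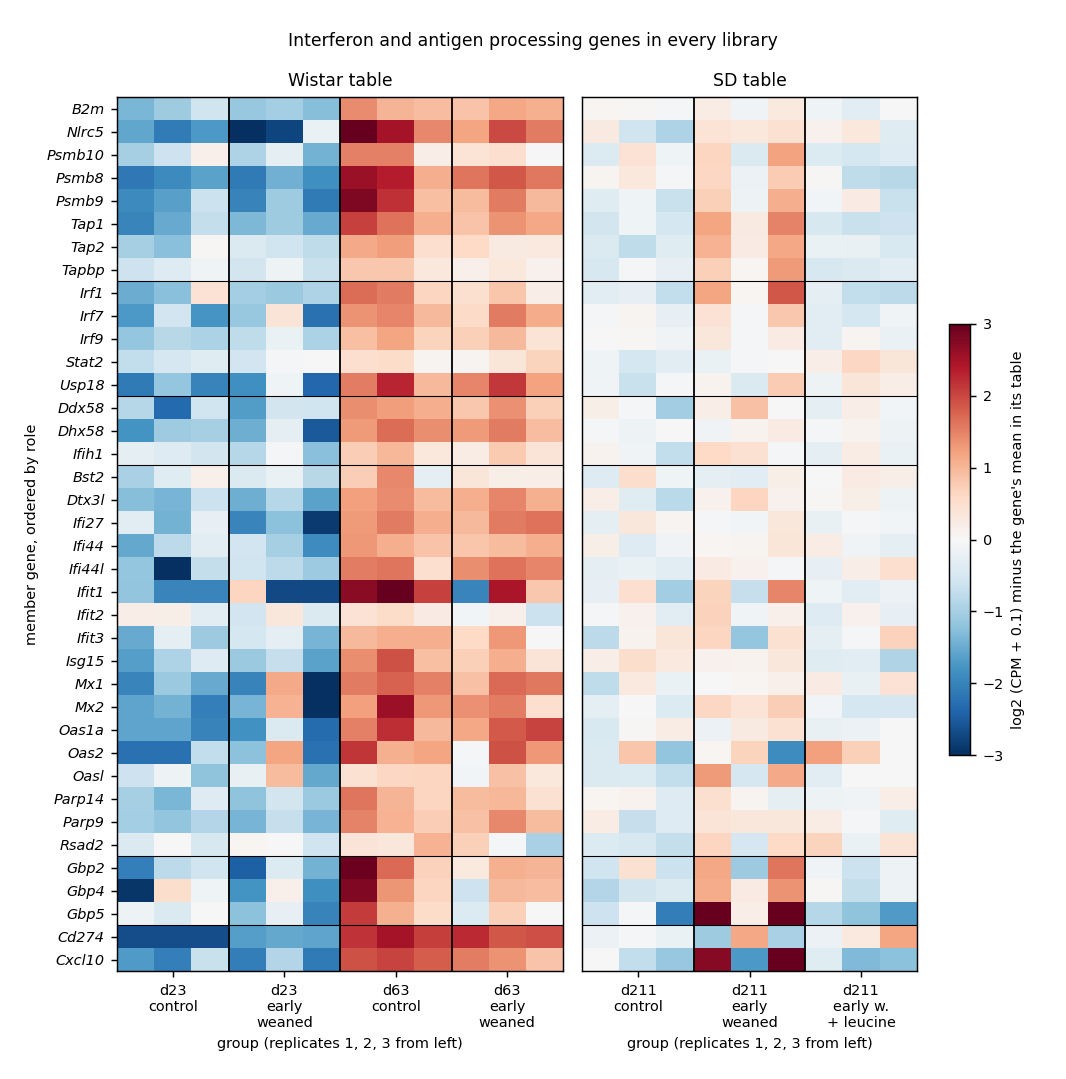
Level of the 38 members (rows, grouped by role) in the 21 libraries (columns, replicates 1 to 3 in each group). Colour is log2 (CPM + 0.1) minus the gene's own mean within its table, with CPM scaled by TMM. Wistar libraries turn from blue at d23 to red at d63 in nearly every row, and at d211 the rows of Tap1, Gbp5, Irf1 and Cxcl10 are reddest in early weaned replicates 1 and 3.

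Between d23 and d63 most of the members rose in control liver, the antigen processing genes among them without exception. In the controls 38 of 38 members were higher at d63, 31 of 38 were called higher and 0 lower, and the median log2 fold change was 2.31 against -0.04 over all genes tested. Of all genes tested 7.97% were called higher in this comparison. All 3 d63 libraries lay above all 3 d23 libraries for 37 of 38 members, against 17.1% of all genes. Called were 8 of 8 antigen processing genes, 5 of 5 regulators, 3 of 3 RNA sensors, 12 of 17 antiviral effectors, 2 of 2 ligands and 1 of 3 guanylate-binding proteins. Apart from Cd274 and Ifit1, whose d23 counts were at or under 3 fragments per library, the 29 called members rose by between 0.92 (Stat2) and 4.49 (Nlrc5) on the log2 scale. Without d23 control replicate 1 the count of members called was 18, and the calls over all genes in that fit are not given here.

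Psmb8, a catalytic subunit of the immunoproteasome, was at 0.81, 1.01 and 1.23 FPKM in d23 controls and 23.02, 20.1 and 8.39 in d63 controls (log2 fold change 4.08, SE 0.38, adjusted p = 0.000338). Psmb9, another catalytic subunit, was at 0.78, 1.01 and 2.01 FPKM and then 22.3, 14.9 and 6.15 (log2 fold change 3.52, SE 0.54, adjusted p = 0.00398). Psmb10, the remaining inducible subunit, went from 4.26, 5.83 and 9.76 to 24.9, 25.3 and 10.2 FPKM (log2 fold change 1.62, SE 0.42, adjusted p = 0.0278). In all 3 genes the d63 libraries were above every d23 library, and d63 replicate 3 was the lowest of its group. Tap1, which pairs with Tap2 in the peptide transporter, rose from 0.51, 0.75 and 1.31 to 8.93, 6.74 and 4.73 FPKM (log2 fold change 2.98, SE 0.35, adjusted p = 0.00115). Tap2 rose from 1.05, 0.92 and 2.23 to 4.79, 5.22 and 3.17 FPKM (log2 fold change 1.66, SE 0.33, adjusted p = 0.0118). Tapbp (tapasin) rose from 5.78, 7.13 and 8.31 to 15.8, 15.9 and 11.6 FPKM (log2 fold change 1.04, SE 0.20, adjusted p = 0.00935). The groups did not overlap for the transporter or for tapasin, and the log2 fold change was largest for Tap1. B2m was at 154, 199 and 268 FPKM at d23 and 1072, 814 and 776 at d63 (log2 fold change 2.11, SE 0.22, adjusted p = 0.000716). Nlrc5, a transactivator of MHC class I genes, was near 0 at d23, with 0.09, 0.06 and 0.08 FPKM, and reached 2.7, 1.89 and 0.92 at d63 (log2 fold change 4.49, SE 0.89, adjusted p = 0.0114). Neither gene's groups overlapped, although the starting levels of the pair lay far apart.

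All 5 regulators rose. Irf1, a transcription factor induced by interferon gamma, was at 1.76, 2.18 and 6.97 FPKM in d23 controls and 16.2, 15.3 and 8.18 in d63 controls (log2 fold change 1.88, SE 0.47, adjusted p = 0.0248). Irf7, which amplifies type I interferon production, was at 1.31, 3.1 and 1.3 and 11.5, 12.6 and 9.11 FPKM (log2 fold change 2.55, SE 0.60, adjusted p = 0.0204). The d23 replicate 3 value of Irf1 came close to the lowest d63 value without passing it, and Irf7 was clearly separated. Irf9, the DNA-binding subunit of the STAT complex, was at 3.35, 4.49 and 3.99 and 14.3, 17.6 and 12.6 FPKM (log2 fold change 1.92, SE 0.24, adjusted p = 0.00139). Stat2, its signalling partner, was at 13.5, 16.6 and 17.9 and 32.1, 33.7 and 24.7 FPKM (log2 fold change 0.92, SE 0.21, adjusted p = 0.0190). Usp18, which removes Isg15 from proteins and dampens the receptor, was at 0.45, 0.99 and 0.51 and 6.46, 10.98 and 4.52 FPKM (log2 fold change 3.50, SE 0.63, adjusted p = 0.00846). No d63 library of these 3 genes fell to the d23 levels. Among the RNA sensors, Ifih1 (MDA5) was at 1.52, 1.49 and 1.29 FPKM at d23 and 3.14, 3.81 and 2.41 at d63 (log2 fold change 1.13, SE 0.30, adjusted p = 0.0298). Ddx58 (RIG-I) was at 1.87, 0.66 and 2.29 and 9.11, 8.4 and 7.6 FPKM (log2 fold change 2.37, SE 0.44, adjusted p = 0.00897). Dhx58 (LGP2), a regulator of both, was at 0.38, 0.7 and 0.72 and 3.53, 4.76 and 3.99 FPKM (log2 fold change 2.77, SE 0.50, adjusted p = 0.00846). All 3 sensors were separated by age.

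Antiviral effectors varied more in size. Isg15, a ubiquitin-like modifier, was at 0.69, 1.25 and 1.8 FPKM in d23 controls and 6.33, 9.25 and 4.58 in d63 controls (log2 fold change 2.44, SE 0.40, adjusted p = 0.00575). Oas1a, an oligoadenylate synthetase that activates RNase L, was at 0.54, 0.58 and 0.41 and 5.11, 8.45 and 3.61 FPKM (log2 fold change 3.47, SE 0.53, adjusted p = 0.00379). Both were well separated by age. Mx1, a dynamin-like GTPase, was at 0.2, 0.41 and 0.29 and 2.63, 3.12 and 2.64 FPKM (log2 fold change 3.22, SE 0.97, adjusted p = 0.0438). Mx2, its paralog, was at 0.98, 1.17 and 0.72 and 7.21, 18.5 and 7.84 FPKM (log2 fold change 3.55, SE 0.88, adjusted p = 0.0241). Ifit3, a partner of RNA-binding Ifit proteins, was at 0.41, 1.09 and 0.58 and 2.56, 2.77 and 2.83 FPKM (log2 fold change 1.98, SE 0.43, adjusted p = 0.0159). None of these overlapped between the ages, and the d63 values of Mx2 were highest in replicate 2. Ifit1, which binds viral RNA ends, held 11, 4 and 4 count units at d23 and 1.95, 4.47 and 1.26 FPKM at d63 (adjusted p = 0.0485). Ifi27, a mitochondrial protein induced by type I interferon, was at 83.95, 41.5 and 91.9 and 260.2, 317 and 233 FPKM (log2 fold change 1.90, SE 0.41, adjusted p = 0.0156). Ifi44, induced by type I interferon, was at 0.75, 1.36 and 1.84 and 5.6, 4.93 and 4.28 FPKM (log2 fold change 1.91, SE 0.36, adjusted p = 0.00935). Ifit1 started at or under the floor, so no fold is given, whereas Ifi27 was already high at d23. Ifi44l, a relative of Ifi44, was at 0.37, 0 and 0.54 and 2.83, 2.99 and 1.37 FPKM (log2 fold change 2.95, SE 0.86, adjusted p = 0.0398). Every d63 library of Ifi44l was above every d23 library, and d23 replicate 2 was at 0.

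Parp9 and Dtx3l encode partners in 1 ADP-ribosyltransferase and ubiquitin ligase complex. Parp9 was at 4.94, 4.62 and 5.55 FPKM in d23 controls and 28.4, 20.98 and 17.2 in d63 controls (log2 fold change 2.15, SE 0.26, adjusted p = 0.00138). Dtx3l was at 0.75, 0.74 and 1.22 and 4.46, 5.09 and 3.74 FPKM (log2 fold change 2.30, SE 0.27, adjusted p = 0.00124). Parp14, a related transferase, was at 2, 1.62 and 3.12 and 12.3, 8.25 and 6.49 FPKM (log2 fold change 2.01, SE 0.32, adjusted p = 0.00500). All 3 were separated by age, and the changes of Parp9 and Dtx3l lay within 1 SE of each other. The effectors that were not called were Bst2, Ifit2, Oas2, Oasl and Rsad2. Bst2 (tetherin), which holds budding virus at the membrane, was at 48.5, 77.6 and 108 and 161, 265 and 81.9 FPKM, and its ages overlapped. Ifit2 had the lowest log2 fold change of any member, 0.38, from 4.14, 4.31 and 2.9 to 4.88, 5.4 and 4.42 FPKM.

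Gbp2, a guanylate-binding GTPase that attacks the vacuoles of microbes, was at 0.42, 1.12 and 1.24 FPKM in d23 controls and 14.6, 6.26 and 3.11 in d63 controls (log2 fold change 3.13, SE 0.68, adjusted p = 0.0151). Gbp4 and Gbp5 were higher in every d63 library but were not called. Cxcl10, a chemokine that draws T cells, was at 0.22, 0.15 and 0.54 and 3.67, 3.99 and 3.54 FPKM (log2 fold change 3.59, SE 0.55, adjusted p = 0.00401). Cd274, a checkpoint ligand that restrains T cells, had 0 counts in all 3 d23 controls and 1.37, 1.75 and 1.31 FPKM at d63 (adjusted p = 0.000145). Against the floor of 12 units per library this is at least 14.6-fold higher, and the median of the members is 2.31 with Cd274 set at that bound too. The Cd274 libraries at d63 lay within a narrow range, unlike those of Gbp2, where replicate 1 stood far above replicate 3.

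The same ages compared in early weaned liver gave a similar list. In early weaned rats 38 of 38 members were higher at d63, 26 of 38 were called higher and 0 lower, with a median log2 fold change of 1.82 (1.76 without Cd274) against -0.02 over all genes. Of all genes 13.5% were called higher in this comparison. Without d63 early weaned replicate 2 the count of members called was 17, again without the calls over all genes in that fit. For 29 of 38 members all d63 libraries lay above all d23 libraries, against 25.9% of all genes. The 26 called members were all called in the controls as well, 5 were called in the controls alone (Ifit1, Mx1, Mx2, Psmb10 and Stat2), and 7 in neither. Whether the age change itself differed between control and early weaned rats was tested as an interaction, described with the early weaning effects. In the early weaned groups, Psmb8 went from 0.87, 1.38 and 1.08 to 11.3, 13.2 and 10.7 FPKM (log2 fold change 3.51, SE 0.37, adjusted p = 0.000520). B2m went from 190.1, 200.2 and 175 to 707, 841 and 792 FPKM (log2 fold change 2.17, SE 0.22, adjusted p = 0.000485). Tap1 went from 0.85, 1.01 and 0.78 to 3.76, 5.15 and 4.5 FPKM (log2 fold change 2.46, SE 0.34, adjusted p = 0.00186). These antigen processing genes did not overlap between the ages. Dtx3l went from 0.7, 1.05 and 0.64 to 3.94, 4.97 and 3.72 FPKM (log2 fold change 2.52, SE 0.28, adjusted p = 0.000678). Parp9 went from 3.93, 6.28 and 4.04 to 18.1, 25.9 and 18.3 FPKM (log2 fold change 2.25, SE 0.26, adjusted p = 0.000909). Ifi27 went from 27.9, 46.1 and 15.4 to 205, 299.9 and 311 FPKM (log2 fold change 3.30, SE 0.44, adjusted p = 0.00164). These 3 effectors were separated by age too. Cd274 was at 0.05, 0.06 and 0.06 FPKM, or 7, 8 and 8 count units, and then at 1.39, 1.03 and 1.09 FPKM (adjusted p = 0.000289).

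The other antigen processing genes and the regulators were higher at d63 in early weaned rats as well. Psmb9 was at 0.77, 1.49 and 0.71 FPKM at d23 and 5.95, 8.94 and 5.87 at d63 (log2 fold change 2.91, SE 0.53, adjusted p = 0.00514). Psmb10 was at 4.67, 7.17 and 3.39 and 11.2, 11.8 and 8.03 FPKM (log2 fold change 1.13, SE 0.42, adjusted p = 0.0657). Tap2 was at 1.66, 1.41 and 1.33 and 3.17, 2.45 and 2.48 FPKM (log2 fold change 1.00, SE 0.33, adjusted p = 0.0444). The ages were separated in all 3, although Psmb10 was not called. Tapbp was at 6.31, 8.12 and 5.98 and 9.74, 10.7 and 9.17 FPKM (log2 fold change 0.65, SE 0.19, adjusted p = 0.0315). Nlrc5 was at 0.02, 0.03 and 0.29 and 0.71, 1.22 and 0.9 FPKM (log2 fold change 3.20, SE 0.84, adjusted p = 0.0200). Among regulators, Irf1 was at 2.61, 2.34 and 2.84 and 6.95, 8.69 and 5.51 FPKM (log2 fold change 1.56, SE 0.47, adjusted p = 0.0322). These were separated as well, and the d23 value of Nlrc5 was highest in replicate 3. Irf7 was at 2.09, 5.94 and 0.97 and 6.48, 12.5 and 9.2 FPKM (log2 fold change 1.75, SE 0.58, adjusted p = 0.0470). Irf9 was at 4.7, 6.79 and 4.19 and 12.2, 14.4 and 9.54 FPKM (log2 fold change 1.32, SE 0.23, adjusted p = 0.00472). Stat2 was at 15.8, 22.6 and 23.8 and 23.6, 27.8 and 33.8 FPKM (log2 fold change 0.58, SE 0.21, adjusted p = 0.0634). Stat2 was the regulator that was not called, and its ages overlapped on FPKM but not on TMM-scaled counts.

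Usp18 and the RNA sensors rose in early weaned rats too. Usp18 was at 0.59, 2.04 and 0.4 FPKM at d23 and 5.95, 9.25 and 4.86 at d63, a log2 fold change of 2.82. Ifih1 was at 1.07, 1.81 and 0.82 and 2.12, 3.1 and 2.34 FPKM, a log2 fold change of 1.14. Ddx58 was at 1.08, 2.34 and 2.4 and 5.88, 8.51 and 5.36 FPKM and Dhx58 at 0.52, 1.2 and 0.24 and 3.44, 4.09 and 2.63, with log2 fold changes of 1.88 and 2.48. All 4 were called and separated by age. Isg15 was at 1.08, 1.43 and 0.78 and 3.81, 4.86 and 2.91 FPKM, a log2 fold change of 1.92. Oas1a was at 0.49, 1.31 and 0.34 and 3.94, 6.15 and 6.96 FPKM, a log2 fold change of 3.10. Ifit3 was at 0.9, 1.06 and 0.48 and 1.89, 3.02 and 1.2 FPKM, a log2 fold change of 1.43. These were called too, with d23 replicate 2 the highest of its group each time. Mx1 was at 0.21, 1.98 and 0.05 and 1.6, 2.77 and 2.51 FPKM (log2 fold change 1.71, SE 0.91, adjusted p = 0.177). Mx2 was at 1.18, 6.46 and 0.35 and 7.79, 8.51 and 4.09 FPKM (log2 fold change 1.44, SE 0.81, adjusted p = 0.203). Ifit1 was at 0.44, 0 and 0 and 0.03, 1.53 and 0.46 FPKM, with 2 of 3 d23 libraries at 0. None of this trio was called, and their ages overlapped, in Mx1 and Mx2 through d23 replicate 2. Ifi44 was at 1.58, 1.13 and 0.63 and 3.98, 4.17 and 4.58 FPKM and Ifi44l at 0.61, 0.51 and 0.41 and 2.49, 2.88 and 2.54, with log2 fold changes of 2.04 and 2.48. Parp14 was at 1.8, 2.78 and 1.98 and 7.57, 7.71 and 5.23 FPKM, a log2 fold change of 1.76. Bst2 was at 73.6, 84.9 and 57.1 and 121, 103 and 103 FPKM, a log2 fold change of 0.72. Of these, Bst2 was not called. Gbp2 was at 0.32, 1.41 and 0.72 and 2.23, 3.75 and 3.63 FPKM (log2 fold change 2.09, SE 0.65, adjusted p = 0.0378). Cxcl10 was at 0.15, 0.45 and 0.14 and 2.73, 2.31 and 1.6 FPKM (log2 fold change 3.21, SE 0.55, adjusted p = 0.00406). In the members called, apart from Cd274, the log2 fold change ran from 0.65 (Tapbp) to 3.51 (Psmb8), over 25 members.

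**Figure D2:**
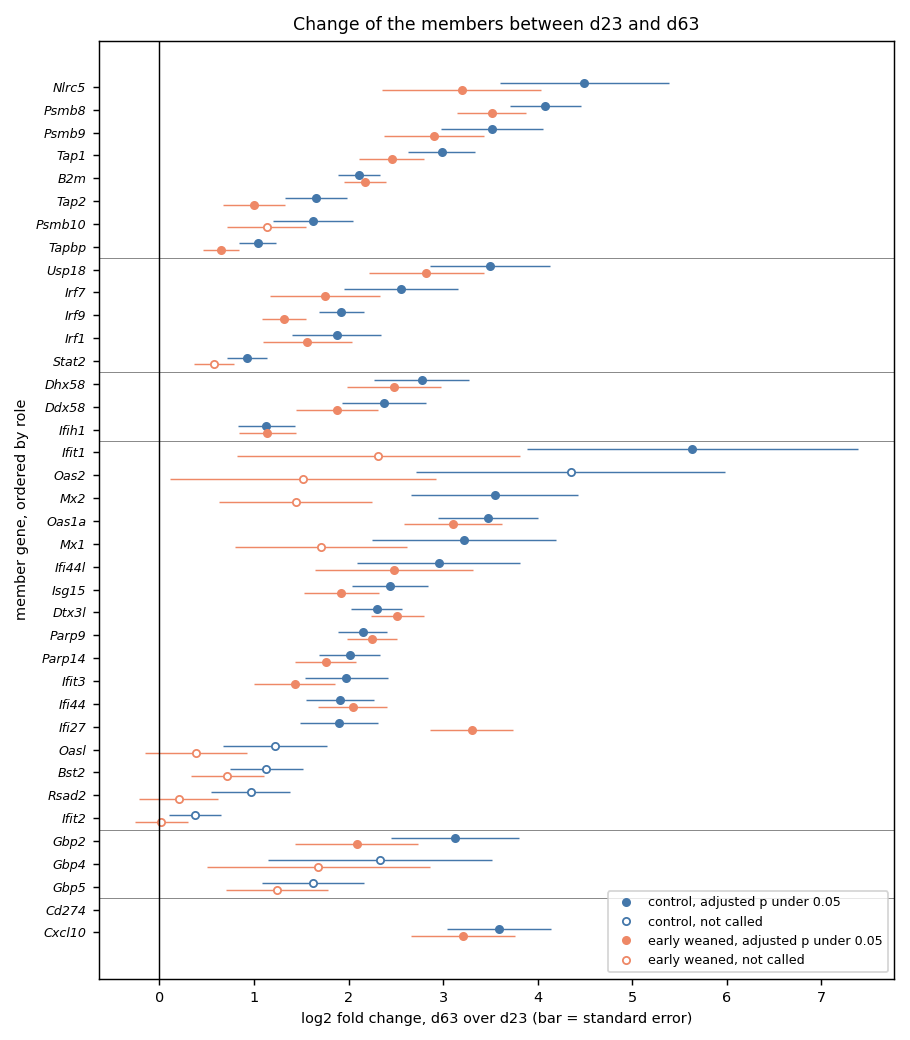
Log2 fold change of each member between d23 and d63 (x axis, bars are the standard error) in control and early weaned Wistar liver, 3 libraries per group. Filled points are called and open points are not; every point lies to the right of 0 and the antigen processing genes at the top are all called in the controls. Cd274 is not drawn because its d23 counts were at or under the floor. Ifit1 is drawn although its d23 control counts were under the floor too, so its points give no usable size. Oas2 is drawn with 2 of 3 d23 control libraries at 0.

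Markers of other cells moved with age as well, in both directions. Of 13 T and NK cell markers 13 were higher at d63 in the controls and 6 were called, and their summed FPKM went from 10.8 to 12.1 at d23 to 17.0 to 28.7 at d63. In the early weaned groups 8 of 13 were higher and 5 were called, with sums of 10.1 to 10.4 at d23 and 12.1 to 12.9 at d63. Cd8b was at 0 in all d23 libraries of both groups, and so were Cd2 and Gzmb in the early weaned d23 libraries. Of 5 B and plasma cell markers 5 were higher in the controls and 1 was called (sums 1.09 to 4.08, then 10.8 to 19.3). Of 11 Kupffer cell and macrophage markers 6 were higher, 0 were called higher and 1, Cd163, was called lower (sums 469 to 696, then 424 to 844). In the early weaned groups 5 of 5 B and plasma cell markers were higher and 3 were called (sums 1.13 to 1.78, then 3.72 to 12.2; Ms4a1 at 0 at d23), while 7 of 11 Kupffer cell markers were lower and 1 was called lower (sums 497 to 614, then 335 to 455). Most endothelial markers were lower at d63. In the controls 6 of 7 were lower and 2 were called (sums 79.0 to 88.2, then 44.3 to 70.4), and in the early weaned groups 7 of 7 were lower, 5 were called and 6 were separated (sums 76.7 to 99.0, then 33.0 to 46.2). Of 7 stellate cell markers 3 were called lower in the controls (sums 154 to 183, then 69.3 to 87.2) and 3 in the early weaned groups (sums 120.0 to 129, then 60.6 to 73.1). Of 5 cholangiocyte markers 5 were lower in the controls and 1 was called (sums 8.99 to 12.7, then 6.24 to 8.67). Of 15416 genes tested 1229 were called higher and 1481 lower in the controls, and 2085 higher and 2076 lower in the early weaned groups. In the early weaned groups 4047 genes were separated downward. The part of these cells in the rise of the members was not tested. In bulk tissue, fewer cells of a type and less RNA per cell cannot be told apart.

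Genes of the same pathway outside the set were described from a list of 80, of which 69 were tested. Between d23 and d63 in controls 32 of 69 were called higher and 2 lower, and in early weaned rats 30 higher and 5 lower. Of all genes 7.97% and 13.5% were called higher in these comparisons, and 1481 and 2076 of 15416 were called lower. Among receptors and kinases, Ifnar2 (0.59), Ifngr2 (1.18) and Jak2 (1.01) rose in controls on the log2 scale. In the early weaned groups the called log2 fold changes were 0.53 for Ifnar2, 1.34 for Ifngr2 and 1.57 for Tyk2, while Socs3, a feedback inhibitor, was lower (-2.26). Ifnar1, the partner chain of the type I receptor, moved the other way from Ifnar2. It was at 17.3, 13.7 and 10.4 FPKM in d23 controls and 7.95, 8.57 and 10.7 in d63 controls (log2 fold change -0.60, SE 0.19, adjusted p = 0.0491), with replicate 3 overlapping between the ages. In the early weaned groups its log2 fold change was -0.65 (adjusted p = 0.0285). Ifngr1, the ligand-binding chain for interferon gamma, was not called, with log2 fold changes of -0.16 and -0.37. The interferon genes Ifna1, Ifnb1 and Ifng themselves had 0 counts in all 21 libraries.

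Among sensing genes and IRF factors, the log2 fold changes called in controls were 0.72 for Irf3, 1.13 for Irf8, 0.83 for Eif2ak2 (the kinase PKR), 1.03 for Adar and 2.37 for Samhd1. The same 5 were called in the early weaned groups, at 1.05, 1.10, 1.05, 0.86 and 2.17, along with Irf2 (0.49) and Trim25 (0.79). Of 29 other interferon-stimulated genes, 16 were called higher in controls. The largest log2 fold changes among them were those of Cxcl9 (3.91), a chemokine like Cxcl10, Irgm (3.38) and Rtp4 (3.26). Uba7 (2.89) and Ube2l6 (2.06), enzymes of the Isg15 conjugation pathway, were called too. The others were Xaf1 (1.93), Trim21 (1.79), Ifi35 (1.35), Nmi (1.33), Lgals3bp (1.24) and Trim14 (1.20). Parp12 (1.09), Parp10 (1.02), Pml (0.92), Sp110 (0.78) and Trex1 (0.61) complete the 16, and Ifitm2, which blocks virus entry, was called lower (-1.05). In the early weaned groups 15 of 29 were called higher, from 0.85 (Parp12) to 4.61 (Cxcl11). They were Ifi35, Xaf1, Trim21, Trim14, Nmi, Rtp4, Parp10, Parp12, Uba7, Ube2l6, Igtp, Irgm, Cxcl9, Cxcl11 and Pml, and Ifitm1 (-0.85) and Ifitm2 (-0.98) were lower.

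Of 12 other antigen processing genes 7 were called higher in controls and 0 lower. Psme1 and Psme2, the subunits of the PA28 activator that caps the proteasome, rose by 1.53 and 1.25 in controls and by 1.55 and 1.28 in early weaned rats on the log2 scale. Tapbpl, a tapasin relative, rose by 1.94 and 1.20, and Ciita, the transactivator of MHC class II, by 3.08 and 2.40. Erap1 (0.86), which trims peptides, and the chaperones Pdia3 (0.80) and Calr (1.05) were called in controls, and Psme3 was lower in early weaned rats (-0.61). The standard catalytic subunits Psmb5, Psmb6 and Psmb7 were not called, with log2 fold changes of 0.06, 0.37 and 0.17 in controls.

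Because FPKM is a level per length, each immunoproteasome subunit was set against the standard subunit it replaces. The ratio of Psmb8 to Psmb5 was 0.0167 ± 0.00310 (mean ± SD, n = 3) in d23 controls and 0.270 ± 0.117 in d63 controls, and it was 0.0166 ± 0.00750 and 0.197 ± 0.0240 in the early weaned groups. The ratio of Psmb9 to Psmb6 was 0.0214 ± 0.00755 and 0.194 ± 0.104 in controls and 0.0155 ± 0.00837 and 0.102 ± 0.0269 in early weaned rats. The ratio of Psmb10 to Psmb7 was 0.125 ± 0.0496 and 0.337 ± 0.139 in controls and 0.0773 ± 0.0338 and 0.180 ± 0.0365 in early weaned rats. The d23 ratio was highest for Psmb10, and the mean d63 ratios were higher than the mean d23 ratios with a wide spread in controls, where control replicate 3 gave a ratio of Psmb10 to Psmb7 of 0.177 at d63 and 0.178 at d23. At d211 the ratio of Psmb9 to Psmb6 was 0.231 ± 0.0516 in controls, 0.579 ± 0.205 in early weaned rats and 0.367 ± 0.137 with leucine. The d211 ratio of Psmb8 to Psmb5 was 0.258 ± 0.0473, 0.392 ± 0.132 and 0.205 ± 0.0912 in the same order, and that of Psmb10 to Psmb7 was 0.335 ± 0.0686, 0.644 ± 0.295 and 0.263 ± 0.0141. Early weaned replicate 2 gave the lowest ratio of its group for all 3 pairs, within the control range for Psmb8 and Psmb10 and above it for Psmb9. The ratios carry no test of their own.

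**Figure D3:**
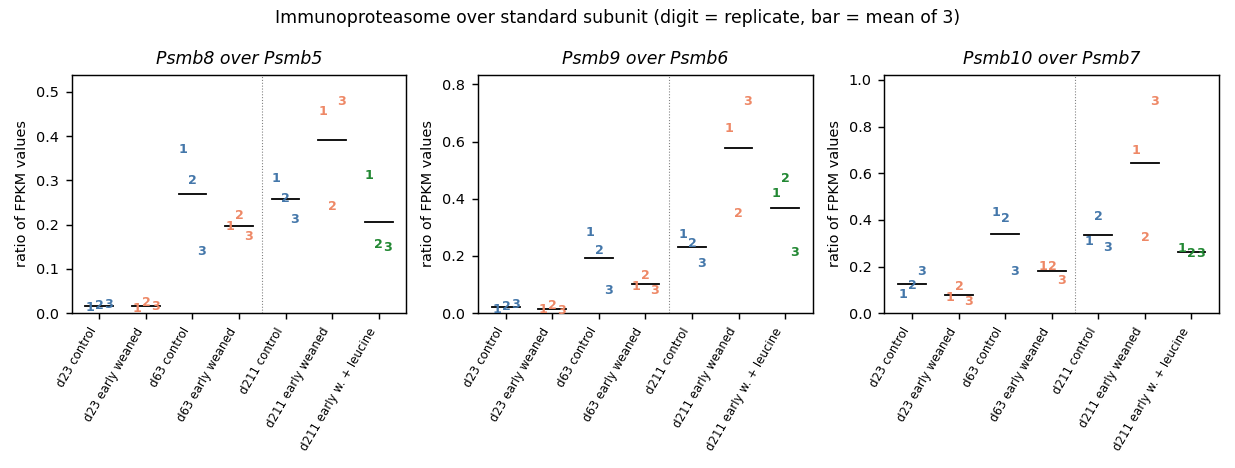
Ratio of the FPKM of each immunoproteasome subunit to that of the standard subunit it replaces (y axis, linear from 0) in the 7 groups; each digit is a replicate and each bar the mean of 3. The Psmb8 to Psmb5 ratio is 0.0167 in d23 controls and 0.270 in d63 controls, and d211 early weaned replicate 2 lies below replicates 1 and 3 in all 3 panels. The dotted line divides the Wistar and SD tables.

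At d23 the members were split between higher and lower values in early weaned liver. Of 38 members 20 were higher and 18 lower, with a median log2 fold change of 0.02 (0.01 without Cd274) against -0.03 over all genes. Called higher was 1 member, Cd274, where 0.00649% of all genes were called higher. That call compares 7, 8 and 8 count units with 0, 0 and 0, both under the floor of 12 units, so no fold is given, and 4 of its 14 alternative analyses kept the call. Ifi27 was at 83.95, 41.5 and 91.9 FPKM in controls and 27.9, 46.1 and 15.4 in early weaned rats (log2 fold change -1.30, SE 0.41, adjusted p = 0.666). Its groups overlapped at 41.5 and 46.1 FPKM. Mx2 was at 0.98, 1.17 and 0.72 FPKM in controls and 1.18, 6.46 and 0.35 in early weaned rats, highest in replicate 2. That library held the highest value of its group for 30 of 38 members, a count that was not made over all genes. Without it the median of the members was -0.32 against -0.04 over all genes. Gbp5 was at 0.51, 0.44 and 0.59 and 0.24, 0.49 and 0.13 FPKM, Irf9 at 3.35, 4.49 and 3.99 and 4.7, 6.79 and 4.19, and Stat2 at 13.5, 16.6 and 17.9 and 15.8, 22.6 and 23.8. None of these was called, and the groups overlapped in all of them.

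At d63 the early weaned group was lower for most members, without any call. Of 38 members 33 were lower and 5 higher, and the median log2 fold change was -0.32 against -0.01 over all genes. With 1 library left out the median ran from -0.26 (without early weaned replicate 3) to -0.52 (without early weaned replicate 2). By edgeR 0 of 38 were called, as were 0% of all genes, and DESeq2 called 0 members. At an unadjusted p under 0.05 there were 2 members, Gbp5 and Tapbp, where 6.05% of all genes passed. Complete separation downward was seen for 2 members, Ifit2 and Cxcl10, against 9.19% of all genes, so neither count exceeds its background. All 8 antigen processing genes were lower, with a median of -0.57. Tapbp was at 15.8, 15.9 and 11.6 FPKM in controls and 9.74, 10.7 and 9.17 in early weaned rats (log2 fold change -0.46, SE 0.19, adjusted p = 0.793). Psmb10 was at 24.9, 25.3 and 10.2 and 11.2, 11.8 and 8.03 FPKM (log2 fold change -0.88, SE 0.41, adjusted p = 0.822). Psmb9 was at 22.3, 14.9 and 6.15 and 5.95, 8.94 and 5.87 FPKM (log2 fold change -0.98, SE 0.49, adjusted p = 0.834). On FPKM the Tapbp groups did not overlap, but on TMM-scaled counts they did, and Psmb9 and Psmb10 overlapped through control replicate 3. Control replicate 3 was the lowest of its group for 32 of 38 members, a count that was not made over all genes. Gbp2 was at 14.6, 6.26 and 3.11 and 2.23, 3.75 and 3.63 FPKM (log2 fold change -1.23, SE 0.63, adjusted p = 0.847). Gbp5 was at 2.58, 1.27 and 0.9 and 0.42, 0.92 and 0.55 FPKM (log2 fold change -1.24, SE 0.53, adjusted p = 0.793). Both overlapped, again through control replicate 3. Cxcl10 was at 3.67, 3.99 and 3.54 FPKM in controls and 2.73, 2.31 and 1.6 in early weaned rats (log2 fold change -0.67, SE 0.49, adjusted p = 0.942). Ifit2 was at 4.88, 5.4 and 4.42 and 3.35, 3.84 and 2.19 FPKM, lower in every early weaned library (log2 fold change -0.56, SE 0.28, adjusted p = 0.832). Cxcl10 and Ifit2 were the members separated on TMM-scaled counts. Of 11 Kupffer cell markers 11 were lower in the early weaned group (sums 424 to 844 against 335 to 455), and of 13 T and NK cell markers 11 were lower (17.0 to 28.7 against 12.1 to 12.9; Cd8b and Gzmb at 0 in the early weaned group). Of 7 endothelial markers 7 were lower (44.3 to 70.4 against 33.0 to 46.2) with a median of -0.62, and 4 of them had an unadjusted p under 0.05 and 4 were separated. Of 5 B and plasma cell markers 5 were lower (10.8 to 19.3 against 3.72 to 12.2). None of these markers was called, and their part in the member values was not tested.

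The difference between the d63 and d23 effects of early weaning was tested directly. No member was called, where 0.00649% of all genes were, and the median log2 difference was -0.50 against 0.03 over all genes (-0.49 without Cd274). The median was -0.15 without d23 early weaned replicate 2 and -0.72 without d63 control replicate 3. At an unadjusted p under 0.05 there were 2 members, Cd274 and Ifi27, where 4.72% of all genes passed, and DESeq2 called 1 member, Cd274. Ifi27 had a log2 difference of 1.40 (SE 0.57), from a log2 fold change of -1.30 at d23 and 0.10 at d63. Mx2 (-2.11), Irf9 (-0.60) and Tap2 (-0.66) had negative log2 differences with an unadjusted p over 0.05. For Cd274 the d23 counts under the floor give no usable size.

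**Figure D4:**
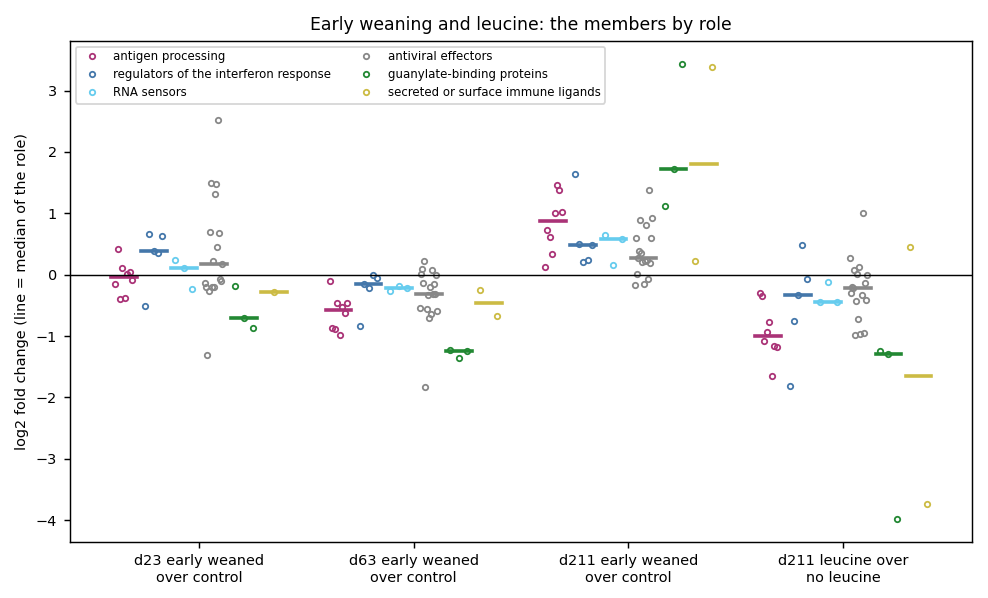
Log2 fold changes of the members (open circles) by role in 4 comparisons, with 3 libraries per group; the line is the median of the role. Antigen processing genes sit between -0.98 and -0.10 at d63, between 0.12 and 1.46 at d211, and between -1.66 and -0.29 for leucine against none. The d23 Cd274 value is left out because its counts were under the floor, and the d211 comparisons share the early weaned libraries. The d23 Ifit1 value is drawn, with control counts under the floor and 2 of 3 early weaned libraries at 0.

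At d211 most members were higher in the early weaned group, among them every antigen processing gene. Of 38 members 35 were higher in early weaned than in control SD liver, with a median log2 fold change of 0.54 against 0.02 over all genes. Called higher were 2 members, Tap1 and Tap2, where 0.419% of all genes were called higher, and 16 members had an unadjusted p under 0.05, as had 17.3% of all genes. For 10 of 38 members all early weaned libraries lay above all controls, against 11.2% of all genes. Another 7 were separated on FPKM alone, namely Ddx58, Dhx58, Dtx3l, Ifih1, Irf7, Psmb9 and Stat2. The share of all genes separated on FPKM was not computed, so these 7 have no background beside them. By role the median log2 fold change was 0.87 for antigen processing genes (8 of 8 higher), 1.72 for guanylate-binding proteins (3 of 3), 0.57 for RNA sensors (3 of 3), 0.48 for regulators (5 of 5) and 0.27 for antiviral effectors (14 of 17). On the FPKM scale all genes shift by 0.22 in this comparison (log2 with a pseudocount of 0.1), and the members' median of 0.70 is 0.48 above that shift.

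Tap1 was at 6.36, 7.79 and 6.27 FPKM in controls and 24.7, 11.6 and 30.1 in early weaned rats (log2 fold change 1.46, SE 0.27, adjusted p = 0.0493). Tap2 was at 4.73, 3.50 and 4.83 and 15.4, 7.90 and 16.6 FPKM (log2 fold change 1.39, SE 0.23, adjusted p = 0.0416). Tapbp was at 11.6, 14.5 and 13.2 and 31.3, 17.4 and 45.3 FPKM (log2 fold change 1.02, SE 0.26, adjusted p = 0.0915). All 3 genes were above every control in each early weaned library, with replicate 2 the lowest, and tapasin was not called. Psmb9 was at 24.6, 26.6 and 19.2 and 60.7, 29.6 and 77.1 FPKM (log2 fold change 1.01, SE 0.32, adjusted p = 0.145). Psmb10 was at 19.4, 31.8 and 22.8 and 46.6, 19.8 and 69 FPKM (log2 fold change 0.62, SE 0.36, adjusted p = 0.424). Psmb8 was at 25.3, 27.4 and 22.3 and 42.8, 21.9 and 47.1 FPKM (log2 fold change 0.34, SE 0.29, adjusted p = 0.611). For these subunits replicates 1 and 3 were above all controls and replicate 2 was within or next to the control range. B2m was at 1085, 981 and 979.6 and 1405, 1006 and 1459.7 FPKM (log2 fold change 0.12, SE 0.15, adjusted p = 0.733), again with replicate 2 among the controls. Nlrc5 was at 1.12, 0.553 and 0.457 and 1.42, 1.18 and 1.46 FPKM (log2 fold change 0.73, SE 0.32, adjusted p = 0.278), and its groups did not overlap.

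The sizes of the largest differences came from 2 of the 3 early weaned libraries. Gbp5, a GTPase that promotes inflammasome assembly, was at 0.730, 1.01 and 0.236 FPKM in controls and 13.2, 1.36 and 11.5 in early weaned rats (log2 fold change 3.44, SE 0.77, adjusted p = 0.0745). Cxcl10 was at 3.51, 1.92 and 1.50 and 27.96, 1.04 and 57.5 FPKM (log2 fold change 3.39, SE 1.01, adjusted p = 0.129). Irf1 was at 7.11, 6.998 and 5.18 and 23.9, 9.70 and 37.8 FPKM (log2 fold change 1.64, SE 0.38, adjusted p = 0.0766). None of the 3 was called, and in Cxcl10 replicate 2 was below every control while the others were far above. Gbp4 was at 0.183, 0.222 and 0.253 and 0.972, 0.459 and 1.14 FPKM (log2 fold change 1.72, SE 0.42, adjusted p = 0.0851). Gbp2 was at 1.55, 3.05 and 1.46 and 6.27, 1.13 and 8.46 FPKM (log2 fold change 1.12, SE 0.58, adjusted p = 0.370). Mx2 was at 8.41, 9.43 and 7.27 and 18.2, 13.8 and 19.4 FPKM (log2 fold change 0.81, SE 0.18, adjusted p = 0.0690). Gbp4 and Mx2 were separated from the controls in every library and Gbp2 was not. Over all members, replicates 1 and 3 both lay above every control for 24 of 38 on TMM-scaled counts. In 14 of those 24 replicate 2 did not, and replicate 2 was the lowest of its group for 26 of 38. The same counts were not made over all genes, so this order is not shown to be particular to the members.

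None of the regulators and antiviral effectors was called, and their log2 fold changes ran from -0.18 for Bst2 to 1.64 for Irf1. Oasl was at 1.19, 1.11 and 0.912 FPKM in controls and 4.61, 1.17 and 4.12 in early weaned rats (log2 fold change 1.37, SE 0.40, adjusted p = 0.121). Rsad2 was at 0.281, 0.245 and 0.215 and 0.723, 0.272 and 0.689 FPKM (log2 fold change 0.93, SE 0.41, adjusted p = 0.280). In both, replicates 1 and 3 stood above every control and replicate 2 lay among the controls. Irf7 was at 8.27, 8.46 and 7.06 FPKM in controls and 13.6, 8.55 and 17.5 in early weaned rats (log2 fold change 0.51, SE 0.22, adjusted p = 0.277). Irf9 was at 10.5, 9.99 and 9.55 and 15.5, 10.5 and 14.6 FPKM (log2 fold change 0.21, SE 0.16, adjusted p = 0.556). Stat2 was at 23.4, 16.2 and 19.8 and 25.96, 25.3 and 29.7 FPKM (log2 fold change 0.24, SE 0.15, adjusted p = 0.465). In Irf7 and Irf9 replicates 1 and 3 stood above the controls and replicate 2 at their upper edge, while the 3 Stat2 libraries were alike. Isg15 was at 6.74, 7.81 and 6.89 and 7.44, 6.53 and 8.64 FPKM, with a log2 fold change of -0.15 by edgeR. Usp18 was at 4.66, 2.93 and 4.71 and 6.29, 3.83 and 9.94 FPKM, a log2 fold change of 0.48. Oas1a was at 3.73, 4.84 and 5.79 and 5.26, 6.39 and 8.09 FPKM, a log2 fold change of 0.24. These 3 overlapped with the controls, and the direction of Isg15 turned positive on the FPKM and TPM scales, as did that of Bst2 and Oas2. Mx1 was at 0.538, 1.07 and 0.786 and 1.07, 1.01 and 1.20 FPKM, a log2 fold change of 0.23. Ifit3 was at 0.893, 1.56 and 1.97 and 2.88, 0.698 and 2.51 FPKM, a log2 fold change of 0.20. Bst2 was at 202, 351 and 234 and 254, 219 and 346 FPKM, a log2 fold change of -0.18. The groups overlapped in these as well, and Ifit3 replicate 2 was below every control. Ifih1 was at 4.03, 3.20 and 2.16 and 6.56, 5.33 and 4.25 FPKM, with every early weaned value above every control on FPKM (log2 fold change 0.57, SE 0.25, adjusted p = 0.284). Cd274 had another pattern, at 1.23, 1.26 and 1.18 FPKM in controls and 0.745, 3.28 and 0.795 in early weaned rats, so that replicate 2 was its highest library.

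The other members called with age were described at d211 too. Parp9 was at 32.3, 15.8 and 20.5 FPKM in controls and 42.3, 36.5 and 40.9 in early weaned rats (log2 fold change 0.60, SE 0.23, adjusted p = 0.218). Dtx3l was at 4.75, 2.98 and 2.30 and 5.32, 6.72 and 5.27 FPKM (log2 fold change 0.60, SE 0.25, adjusted p = 0.261). Parp14 was at 10.5, 9.92 and 7.43 and 16.3, 11.03 and 9.57 FPKM (log2 fold change 0.19, SE 0.21, adjusted p = 0.720). Parp9 was separated on both scales, Dtx3l on FPKM, and Parp14 overlapped. Ddx58 was at 6.66, 5.27 and 2.74 and 7.89, 11.4 and 6.87 FPKM (log2 fold change 0.64, SE 0.33, adjusted p = 0.367). Dhx58 was at 5.04, 4.26 and 4.96 and 5.56, 5.75 and 7.03 FPKM (log2 fold change 0.15, SE 0.15, adjusted p = 0.660). In Ddx58, unlike in the transporter genes, replicate 2 was the highest early weaned library. Ifit1 was at 0.932, 1.48 and 0.505 and 2.13, 0.698 and 3.68 FPKM, a log2 fold change of 0.89. Ifi27 was at 474, 680.1 and 591 and 660.4, 567 and 841 FPKM, a log2 fold change of 0.02. Ifi44 and Ifi44l were at 5.27, 3.28 and 4.20 and at 2.72, 2.65 and 2.54 FPKM in controls and at 5.66, 5.12 and 6.97 and at 4.53, 3.70 and 3.71 in early weaned rats. Of these 4 effectors only Ifi44l was separated from the controls, with a log2 fold change of 0.38.

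**Figure D5:**
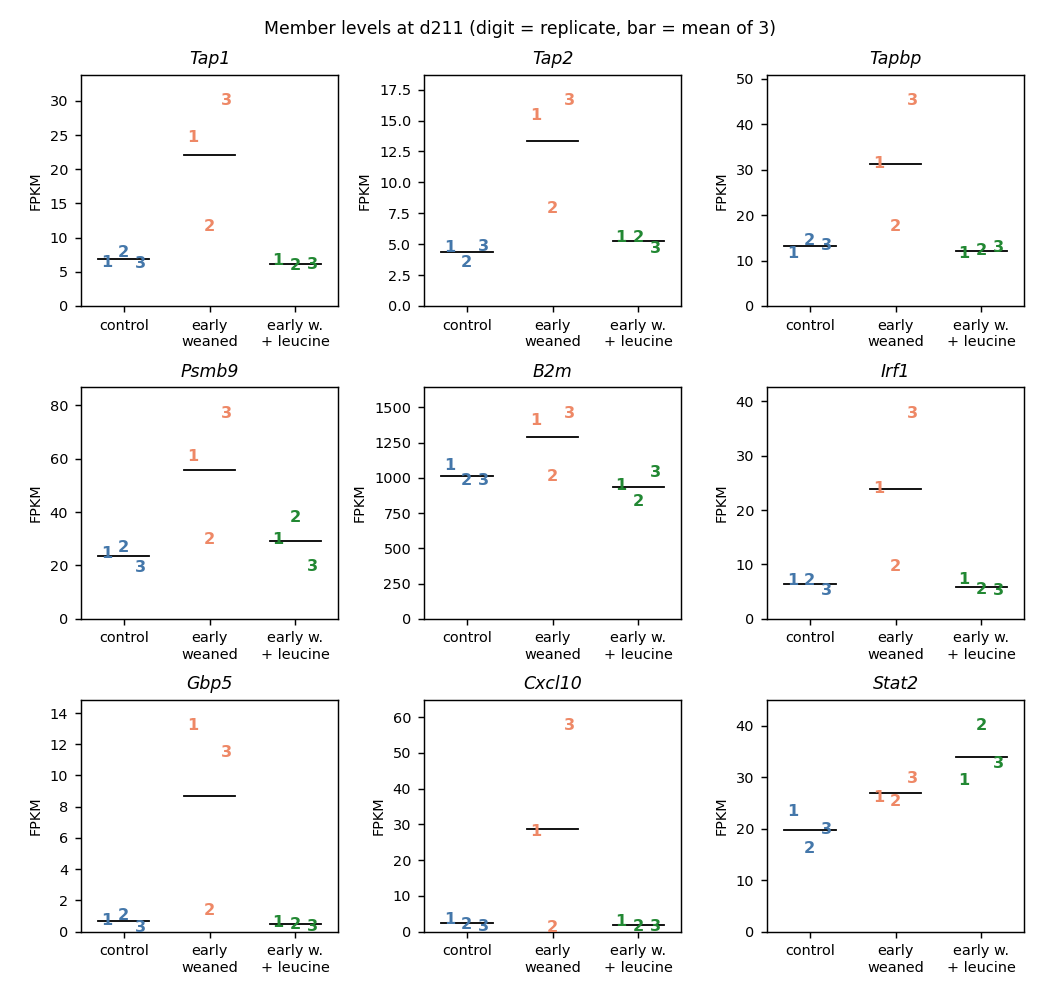
FPKM (linear y axes from 0) of 9 members at d211 in the control, early weaned and early weaned plus leucine groups; each digit is a replicate and each bar the mean of 3. Early weaned replicates 1 and 3 are above all controls in every panel, replicate 2 is nearest the controls in all panels, and Stat2 is the panel in which the leucine group is highest.

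Leaving out any control, or early weaned replicate 1 or 3, left 0 members called, while leaving out early weaned replicate 2 gave 10 called higher. Calls over all genes moved too, from 108 in the main fit to 2 to 76 in the former fits and 534 in the latter. A fit on the compared groups alone called 0 members and DESeq2 called 10, where 31 and 1122 of all genes were called. The adjusted p of Tap1 ran from 2.83e-05 to 0.174 over 15 alternatives. Markers of other cells varied among the same libraries, with none called. The summed FPKM of the 13 T and NK cell markers in the tables was 18.8, 14.3 and 22.9 in the early weaned libraries and 12.4 to 14.7 in controls, with 9 of 12 tested markers higher and Gzmb at 0 in both groups. Of 11 Kupffer cell markers 6 were higher (sums 240 to 471 against 144 to 382), and of 9 hepatocyte markers 9 were lower (59298 to 67917 against 63862 to 69364). Of 5 cholangiocyte markers 5 were higher, with sums of 27.1, 16.1 and 30.5 in the early weaned libraries against 8.24 to 13.5. Of 2 tested plasmacytoid dendritic cell markers 2 were higher, with sums over the list of 11.5, 7.11 and 14.6 against 5.80 to 6.32, and Siglech and Bcl11a were at 0 in all controls. Both of these sums were separated between the groups and, like that of the T and NK cell markers, were lowest in early weaned replicate 2. Their part in the member values was not tested. Of 69 other pathway genes 52 were higher and 17 lower, with a median of 0.25, and 0 were called by edgeR while 22 had an unadjusted p under 0.05. Of these 22 genes 18 were higher and 4 lower, and 17.3% of all genes passed. Ifnar1 and Ifngr1 gave log2 fold changes of 0.14 and -0.30. Psme1 and Psme2 gave -0.03 and 0.21, while Psmb5, Psmb6 and Psmb7 gave -0.28, -0.35 and -0.33.

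With leucine in the drinking water most members were lower, and Tap1 fell. Against early weaned rats without leucine, which are also the early weaned group of the previous comparison, 30 of 38 members were lower and the median log2 fold change was -0.42 against 0.00 over all genes. Called lower was 1 member, Tap1, where 0.180% of all genes were called lower, and 15 members had an unadjusted p under 0.05, of which 14 were lower, as had 13.1% of all genes. For 10 of 38 members all leucine libraries lay below all libraries without leucine, against 10.5% of all genes. Another 4 were separated on FPKM alone, namely Dtx3l, Nlrc5, Oas1a and Psmb10. The share of all genes separated on FPKM was not computed here either. On that scale all genes shift by -0.15 (log2 with a pseudocount of 0.1). The median was -1.002 for antigen processing genes (8 of 8 lower), -1.30 for guanylate-binding proteins (3 of 3), -0.44 for RNA sensors (3 of 3), -0.33 for regulators (4 of 5) and -0.21 for antiviral effectors (11 of 17).

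Tap1 was at 6.67, 5.90 and 5.996 FPKM with leucine, under every value without it (log2 fold change -1.66, SE 0.27, adjusted p = 0.0492). Tap2 was at 5.56, 5.57 and 4.63 FPKM with leucine (log2 fold change -1.17, SE 0.23, adjusted p = 0.0614). Tapbp was at 11.6, 12.1 and 12.8 FPKM (log2 fold change -1.18, SE 0.26, adjusted p = 0.0806). None of these leucine libraries reached early weaned replicate 2, the lowest without leucine. Psmb8 was at 24.3, 14.3 and 13.2 FPKM with leucine (log2 fold change -0.93, SE 0.29, adjusted p = 0.181). Psmb9 was at 29.6, 37.9 and 19.7 FPKM (log2 fold change -0.76, SE 0.32, adjusted p = 0.342). Psmb10 was at 19.2, 18.1 and 19.3 FPKM (log2 fold change -1.07, SE 0.36, adjusted p = 0.222). For Psmb8 and Psmb9 the groups overlapped through early weaned replicate 2, and the Psmb10 values were close together with leucine. B2m was at 945, 831 and 1039 FPKM (log2 fold change -0.29, SE 0.15, adjusted p = 0.457), and Nlrc5 at 0.997, 1.16 and 0.707 (log2 fold change -0.34, SE 0.31, adjusted p = 0.741).

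Gbp5 was at 0.615, 0.482 and 0.329 FPKM with leucine (log2 fold change -3.98, SE 0.79, adjusted p = 0.0614). Mx2 was at 9.54, 7.03 and 7.004 FPKM (log2 fold change -0.96, SE 0.18, adjusted p = 0.0547). Irf1 was at 7.25, 5.40 and 5.12 FPKM (log2 fold change -1.82, SE 0.38, adjusted p = 0.0689). In all 3 the leucine libraries were below every library without leucine, but the adjusted p missed the threshold. Cxcl10 was at 2.73, 1.38 and 1.45 FPKM (log2 fold change -3.74, SE 1.02, adjusted p = 0.139), and its early weaned replicate 2 was below all of these. Gbp4 was at 0.378, 0.212 and 0.329 FPKM, under every library without leucine (log2 fold change -1.30, SE 0.42, adjusted p = 0.204). Gbp2 was at 2.21, 1.52 and 2.11 FPKM, above early weaned replicate 2 and below replicates 1 and 3 (log2 fold change -1.24, SE 0.58, adjusted p = 0.416). Irf7 was at 6.92, 6.05 and 7.91 FPKM, a log2 fold change of -0.75, and Isg15 at 4.48, 4.75 and 3.05, a log2 fold change of -0.72. Both were below every library without leucine. Stat2 went the other way, at 29.3, 39.9 and 32.6 FPKM (log2 fold change 0.49, SE 0.15, adjusted p = 0.180), higher in 2 of 3 leucine libraries on FPKM and in 3 of 3 on TMM-scaled counts. Irf9 was at 8.40, 11.2 and 9.06 FPKM, a log2 fold change of -0.33. Usp18 was at 4.49, 6.56 and 5.79 FPKM, a log2 fold change of -0.08. Oas1a was at 4.39, 4.55 and 5.15 FPKM, a log2 fold change of -0.33. Of these, Oas1a was separated on FPKM, and on TMM-scaled counts all 3 overlapped. Ifih1 was at 3.03, 4.43 and 3.24 FPKM, a log2 fold change of -0.44. Ddx58 and Dhx58 were at 4.88, 6.94 and 5.55 and at 4.98, 5.57 and 4.54 FPKM, with log2 fold changes of -0.45 and -0.12. All 3 RNA sensors overlapped. Parp9 was at 32.5, 26.9 and 21.5 FPKM, under every library without leucine (log2 fold change -0.40, SE 0.23, adjusted p = 0.517). Dtx3l and Parp14 were at 4.28, 4.74 and 3.69 and at 9.03, 9.46 and 11.5 FPKM, with log2 fold changes of -0.30 and -0.14. Mx1 was at 1.12, 0.811 and 1.27 FPKM, Ifit3 at 1.29, 1.52 and 2.56 and Ifit1 at 1.02, 0.896 and 0.978, with log2 fold changes of 0.13, 0.01 and -0.98. The sign differed among these effectors and none was separated apart from Parp9 and, on FPKM alone, Dtx3l. Bst2 was at 268, 318 and 299.9 FPKM, Ifi27 at 497, 568 and 539, Ifi44 at 5.47, 4.39 and 3.81 and Ifi44l at 2.73, 3.82 and 4.67, with log2 fold changes of 0.28, -0.20, -0.21 and 0.07. Cd274, at 1.22, 1.74 and 3.20 FPKM, gave 0.46. All 5 of these genes overlapped.

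The Tap1 call was lost without any 1 of the leucine libraries or of early weaned replicates 1 and 3, and 12 members were called lower without replicate 2. A fit on the compared groups alone called 0 and DESeq2 10, and the adjusted p of Tap1 ran from 1.33e-06 to 0.182 over 15 alternatives. The calls over all genes in these fits are not given here. Of 12 tested T and NK cell markers 11 were lower with leucine (sums 11.2 to 18.9 against 14.3 to 22.9; Gzmb at 0 without leucine), and of 11 Kupffer cell markers 11 were higher (284 to 418 against 240 to 471). Of 7 endothelial markers 7 were higher (50.1 to 58.7 against 34.6 to 55.2) with a median of 0.39. Of 9 hepatocyte markers 8 were higher (66429 to 74611 against 59298 to 67917), 3 with an unadjusted p under 0.05 and 4 separated. In this comparison 1433 of 15019 genes tested were separated upward. Cholangiocyte markers were split, 2 of 5 higher, with sums of 10.1 to 15.3 against 16.1 to 30.5. None was called, and their part in the member values was not tested. Of 69 other pathway genes 51 were lower with leucine, with a median of -0.20, and 0 were called by edgeR while 17 had an unadjusted p under 0.05. Of these 17 genes 15 were lower and 2 higher, and 13.1% of all genes passed.

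Leucine-treated early weaned rats were compared with the controls as well, a comparison that shares its groups with both preceding ones. Of 38 members 21 were higher and 17 lower, with a median log2 fold change of 0.05 against 0.01 over all genes. By edgeR 0 members were called, where 0.0133% of all genes were called, and DESeq2 called 2, Isg15 and Stat2. At an unadjusted p under 0.05 there were 3 members (Stat2, Isg15 and Rsad2), or fewer than the 10.8% of all genes that passed. Stat2 was at 23.4, 16.2 and 19.8 FPKM in controls and 29.3, 39.9 and 32.6 with leucine, higher in each leucine library (log2 fold change 0.73, SE 0.15, adjusted p = 0.282). Isg15 was at 6.74, 7.81 and 6.89 and 4.48, 4.75 and 3.05 FPKM, lower in each (log2 fold change -0.86, SE 0.20, adjusted p = 0.328). Rsad2 (viperin), an enzyme that makes a chain-terminating nucleotide, was at 0.281, 0.245 and 0.215 and 0.627, 0.335 and 0.515 FPKM, higher in each (log2 fold change 0.93, SE 0.41, adjusted p = 0.456). Ifi44l was at 2.72, 2.65 and 2.54 and 2.73, 3.82 and 4.67 FPKM, and Usp18 at 4.66, 2.93 and 4.71 and 4.49, 6.56 and 5.79, with log2 fold changes of 0.45 and 0.41. The transporter genes gave -0.20 (SE 0.27) for Tap1 and 0.22 (SE 0.23) for Tap2, and Psmb8 gave -0.59 (SE 0.29). A p that misses the threshold at this spread does not show that the leucine group equals the controls.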

How the data were processed

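Liver RNA of 21 samples was sequenced after an mRNA library kit whose strand handling is not stated, per the labels. For each of 2 tables (12 Wistar and 9 SD libraries) the authors deposited, per the file headers, a count and an FPKM for every gene and library. The authors' deposited values per gene are whole, unnormalized numbers with low values piling up at multiples of 4, and were handled as an estimated count. The authors' FPKM is scaled by gene length and library size, and values listed as 0.0001 in the SD table have 0 counts. The builds GRCm38 and mm10, named in the submitters' processing notes, are mouse builds, while the tables hold rat genes; coordinates are printed as the tables hold them. No aligner or counter is named there.

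Counts were tested within each table with edgeR 4.0.16 (R 4.3.3; TMM, a minimum count of 10, group means, quasi-likelihood F test, Benjamini-Hochberg over all genes), without covariates. The test was checked on simulated data. Values in every library are given for members called in any comparison, for the 6 members of smallest p in each and for a panel covering every role; members and lists were chosen with earlier results of these data known. Alternatives were DESeq2 1.42.0, limma 3.58.1 with a trend on log2 (FPKM + 0.1), log2 (FPKM + 1) and log2 (TPM + 0.1), RLE scaling, no filter, counts divided by 4, fits on the compared groups alone, a replicate block and leaving out each library. No libraries were duplicates (highest correlation 0.961), and every column matched a labelled sample. Values of 1 pathway gene outside the set are not reported here.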

Additional observations from a re-analysis of the deposited data

How the results depend on the processing

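The calls at d211 depended on the setting more than the directions did. For early weaned against control, where 2 members were called, the count was 10 with DESeq2, 5 with limma on TPM, 0 with a fit on the compared groups alone and 0 to 10 when 1 library was left out. Over all genes 108 were called in the main fit, 1122 with DESeq2 and 516 with limma on TPM. The compared groups alone gave 31, and leaving out 1 library gave 2 to 534. For leucine against none, where 1 was called, it was 0 with RLE scaling, 10 with DESeq2, 3 with no filter, 4 with counts divided by 4, 2 with limma on TPM, 0 on the compared groups alone and 0 to 12 with 1 library left out. For leucine against control DESeq2 called 2, against 0. For the d23 call the count was 0 with counts divided by 4, with all 3 limma settings and on the compared groups alone, and 0 to 1 with 1 library left out. Members called with age numbered 19 on the compared control groups alone, 18 to 31 with 1 control library left out and 17 to 25 with 1 early weaned library left out. In the interaction DESeq2 called 1, against 0. Apart from early weaned against control at d211, the calls over all genes in these fits are not given here. The member counts alone therefore do not show a shift particular to the members. The cause was not tested. The median of the members at d23 changed sign in several settings. It was -0.02 with the replicate block and -0.03 on the compared groups alone. With 1 library left out it was -0.11 (control replicate 1), -0.07 (control replicate 2), -0.32 (early weaned replicate 2) or 0.264 (control replicate 3). With a pseudocount of 1 the medians of the age comparisons were smaller, 1.58 in controls and 1.18 in early weaned rats. On the FPKM and TPM scales the median of all genes moved by up to 0.31 (d211 early weaned against control, TPM), and the members' median was then 0.48 above it.

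Same-numbered samples showed little common deviation (correlations from -0.108 to 0.127, not over 0.1 for every pair in any comparison). The numbers were therefore not treated as pairs, although 3 libraries a group cannot exclude a weak pairing. With the replicate block the counts were 0 at d23, 0 for d211 early weaned against control, 0 for leucine against none, 28 for age in controls and 23 for age in early weaned rats. Over all genes the block fit called 1 at d23 and 49 for d211 early weaned against control. The calls over all genes for leucine and for age are not given here.

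With 3 libraries a group, precision is limited by a biological coefficient of variation of 0.404 (Wistar) or 0.379 (SD). Members under about 12 count units per library, as Cd274 and Ifit1 at d23, give no usable fold.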
